A study of Mus musculus with 7 samples.

Results

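The semaphorins, ephrins, Slits and netrins are secreted and membrane-bound cues of axon guidance. The genes of these cues and of their receptors were described here across 4 lists of modified DNA from the mouse line ATDC5. Members were the protein-coding genes whose symbols begin with Sema, Plxna, Plxnb, Plxnc, Plxnd, Nrp, Efna, Efnb, Epha, Ephb, Slit, Robo, Ntn or Unc5 followed by a number or letter code, which gave 71 of 21951 protein-coding genes. The symbols Ntng1 and Ntng2 (netrin-G proteins) and Unc5cl, a death-domain protein that is not a netrin receptor, also met this spelling. A peak was placed at a member if it touched the gene or the 5000 bp upstream of it, or if it carried the member's symbol in the authors' annotation. By this rule 39 peaks lay at 23 members (32.4%), and 48 members had none in any list. Over all protein-coding genes the share with a peak in any list was 15.9%.

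ATDC5 is a chondroprogenitor line of teratoma origin that turns into cartilage-forming cells in medium with insulin, transferrin and selenite. No sample is labelled with a genetic change, and the labels do not give the number of cultures behind the samples. The 4 lists held regions enriched for 5-methylcytosine (5mC) in progenitors before induction at day 0 (326 peaks) and in differentiating cells at day 10 (2401 peaks), and regions enriched for 5-hydroxymethylcytosine (5hmC) in differentiating cells at day 5 (2058 peaks) and day 10 (4164 peaks). Each 5mC list came from 1 sample and each 5hmC list from 2 merged samples, which leaves the values without a replicate spread and without a test. The day 0 input DNA, the remaining sample, comes without a list and was not used here. The days are those of the labels. The text of the study names different days for these profiles, and its methods speak of calling gained or lost marks between stages, so a list may hold differences between samples rather than every site of a mark. The 5mC lists held regions of at least 3-fold and the 5hmC lists of at least 10-fold enrichment, with no score or read count per peak, and numbers of peaks were therefore not compared between marks. Lists of DNA regions hold no expression values, and the cell type was not checked against marker genes.

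Guidance proteins steer cells and growing axons by attraction or repulsion. Semaphorins signal through plexins, with neuropilins as co-receptors of most secreted class 3 members. Ephrins are held at the cell surface and bind Eph receptor tyrosine kinases on neighbouring cells, secreted Slits bind Robo receptors, and netrins bind Unc5 receptors and Dcc. Outside the nervous system the same families act in blood vessels, in bone and in the skeleton of the limb. In DNA, 5mC is made mainly at CpG dinucleotides, and TET enzymes oxidise it to 5hmC.

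The sequences of 8 peaks are shown first, since the places and features described below refer to them. All are written 5′ to 3′ on the plus strand of GRCm38 (RefSeq GRCm38.p6). Plxna4 and Plxnd1 were the only members with a 5hmC peak at day 10 that overlapped one at day 5. The Plxna4 peak was chr6:32377440-32377626, in an intron, and CpG dinucleotides are in capitals.
Plxna4, 5hmC day 10: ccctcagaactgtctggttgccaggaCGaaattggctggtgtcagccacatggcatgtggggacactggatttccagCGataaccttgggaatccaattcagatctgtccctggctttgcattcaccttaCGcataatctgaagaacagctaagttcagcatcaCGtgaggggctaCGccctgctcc
The Plxnd1 peak was 309 bp wide, and its central 300 bases, chr6:115973776-115974075 in an intron, are shown with CpG in capitals.
Plxnd1, 5hmC day 10: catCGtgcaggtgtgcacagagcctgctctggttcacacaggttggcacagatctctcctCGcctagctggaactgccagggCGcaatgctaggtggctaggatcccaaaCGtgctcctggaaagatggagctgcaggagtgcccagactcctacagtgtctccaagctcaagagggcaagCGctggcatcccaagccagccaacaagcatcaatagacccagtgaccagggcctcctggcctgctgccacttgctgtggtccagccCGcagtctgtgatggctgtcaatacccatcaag
These stretches held 5 and 6 CpG.

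The next 3 sequences are the intronic peaks of at most 300 bp that held one of the motif strings searched, with the string in capitals. The first lies at chr2:124239988-124240126, where the SOX string begins at base 91, the second at chr15:32433218-32433380 with the NF1 string at base 48, and the third at chr11:35297541-35297761 with a SOX string at base 116.
Sema6d, 5hmC day 10: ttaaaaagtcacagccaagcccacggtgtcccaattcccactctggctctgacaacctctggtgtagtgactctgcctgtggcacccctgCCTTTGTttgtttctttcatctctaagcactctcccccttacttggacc
Sema5a, 5hmC day 10: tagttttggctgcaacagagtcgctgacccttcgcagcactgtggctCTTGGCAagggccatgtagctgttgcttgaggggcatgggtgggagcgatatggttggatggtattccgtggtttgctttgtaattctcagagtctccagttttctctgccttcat
Slit3, 5hmC day 10: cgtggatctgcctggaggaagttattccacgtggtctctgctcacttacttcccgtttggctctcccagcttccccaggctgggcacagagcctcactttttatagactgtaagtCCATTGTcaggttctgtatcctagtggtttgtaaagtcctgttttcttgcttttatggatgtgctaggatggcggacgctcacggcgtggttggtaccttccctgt
The last 3 were chosen after their values were seen. They are the neighbouring pair of peaks at Ntn1, chr11:68387199-68387335 and chr11:68387415-68387553, and the single day 10 5hmC peak in a coding exon, at Sema4f, chr6:82913588-82913785, with CpG in capitals.
Ntn1, first peak, 5hmC day 10: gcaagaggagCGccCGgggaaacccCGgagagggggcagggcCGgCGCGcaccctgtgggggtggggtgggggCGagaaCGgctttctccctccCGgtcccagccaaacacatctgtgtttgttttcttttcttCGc
Ntn1, second peak, 5hmC day 10: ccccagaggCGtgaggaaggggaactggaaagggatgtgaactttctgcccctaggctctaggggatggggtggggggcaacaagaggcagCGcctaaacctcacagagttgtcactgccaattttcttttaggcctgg
Sema4f, 5hmC day 10: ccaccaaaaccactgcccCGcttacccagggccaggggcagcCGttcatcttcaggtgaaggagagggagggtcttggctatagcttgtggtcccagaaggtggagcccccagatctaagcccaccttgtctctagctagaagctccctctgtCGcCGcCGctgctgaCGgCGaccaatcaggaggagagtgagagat
The Ntn1 peaks were similar in width, but the first held 10 CpG and the second 2.

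Guidance genes held 5hmC peaks in a larger share than protein-coding genes as a whole, and 5mC peaks in a like share. No member had a peak in the day 0 5mC list, where 0.556% of all protein-coding genes had one, and the Wilson 95% interval of a count of 0 among 71 genes reached 5.13%. The nearest day 0 5mC peak to any member lay 125774 bp from Sema3d. In the day 10 5mC list 6 members had a peak, 8.45% (interval 3.93 to 17.2), beside 6.71% of all protein-coding genes. In the day 5 5hmC list 9 members had a peak, 12.7% (6.81 to 22.4), beside 5.27%. In the day 10 5hmC list 16 members had a peak, 22.5% (14.4 to 33.5), beside 8.32%. These intervals cover counting error over genes only, since library depth is unknown. Against protein-coding genes of any length, the 5mC share thus lay near its background, whereas both 5hmC shares lay above theirs. This background takes no account of gene length, which is treated next.

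**Figure D1:**
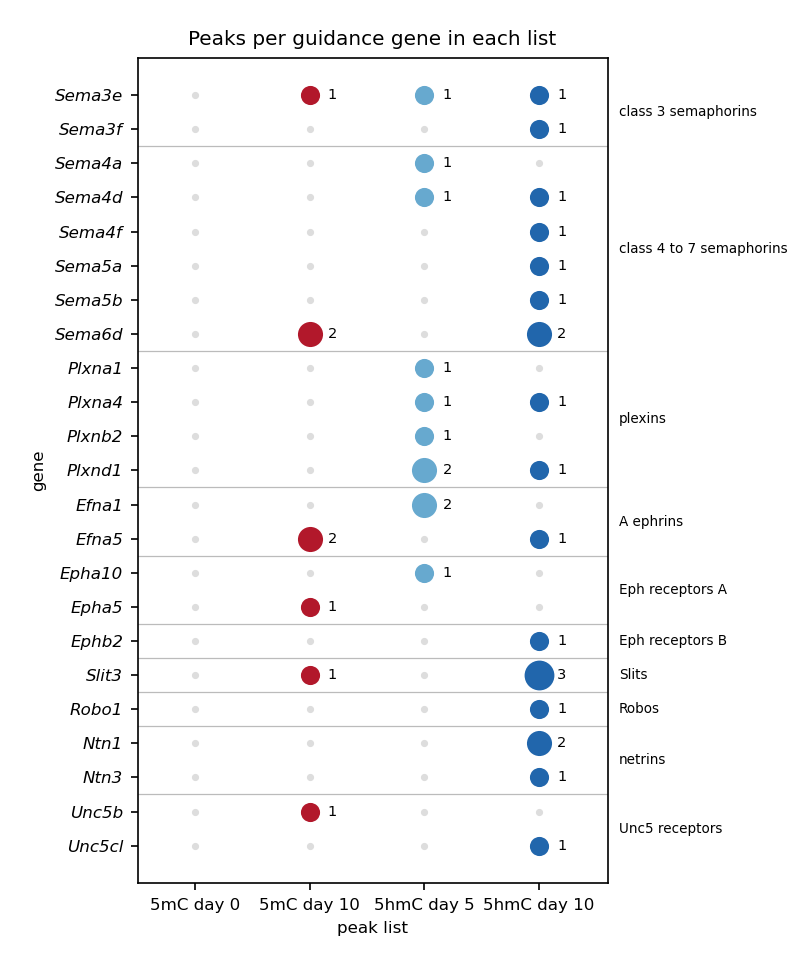
Number of peaks (point size and printed number) at each of the 23 guidance genes with a peak, by list and grouped by family. Small grey points mark no peak. No gene had a peak in the day 0 5mC list, and Slit3 had the most in a single list, with 3.

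Guidance genes were longer than most genes, and long genes held peaks more often. The median length was 56.6 kb for members and 17.4 kb for all protein-coding genes, and 36 members (50.7%) were at least 50 kb long beside 22.8% of all genes. With all genes split into 10 equal classes by length and the share with a peak taken from each class, 71 genes of these lengths would hold 9.09 genes with a 5mC peak at day 10, 7.47 with a 5hmC peak at day 5 and 12.5 with one at day 10. The observed counts were 6, 9 and 16, so the 5mC count was below its length-based value and both 5hmC counts were above theirs. These differences were smaller for 5hmC than those from the share over all genes, and they were not tested. Per megabase of gene, members held fewer peaks than all protein-coding genes in each list, at 0.69 against 1.57 for 5mC at day 10, 0.948 against 1.16 for 5hmC at day 5 and 1.72 against 2.26 for 5hmC at day 10.

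The comparison differed between short and long genes. Among the 36 members of at least 50 kb, none had a day 0 5mC peak (1.72% of all genes of that length), and 6 had a day 10 5mC peak, 16.7% beside 16.2%. In the same class 3 had a day 5 5hmC peak, 8.33% beside 14%, and 12 had a day 10 5hmC peak, 33.3% beside 23.5%. Among the 35 members under 50 kb, none had a 5mC peak at day 0 (0.212% of all genes) or at day 10 (3.9%). However, 6 of them had a day 5 5hmC peak, 17.1% beside 2.69%, and 4 had a day 10 5hmC peak, 11.4% beside 3.84%. The 6 were Sema4a, Plxna1, Plxnb2, Plxnd1, Efna1 and Epha10, and the 4 were Sema3f, Sema4f, Plxnd1 and Ntn3. Within each class members were still the longer genes, with medians of 15.6 against 11.3 kb and 202 against 99.5 kb, and the part of length in these shares was not tested further. The 50 kb limit was not varied, and Plxna1 (46.3 kb) and Plxnd1 (40.2 kb) lay not far under it.

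**Figure D2:**
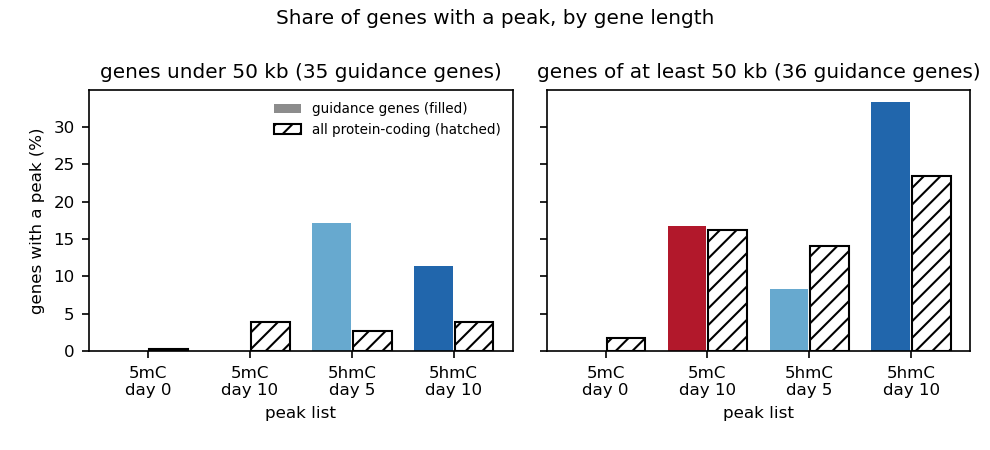
Percentage of genes with a peak in each list, for guidance genes (filled bars) and all protein-coding genes (hatched bars), under 50 kb on the left and of at least 50 kb on the right. The day 5 5hmC bar of guidance genes is above the background under 50 kb (17.1% beside 2.69%) and below it from 50 kb up (8.33% beside 14%).

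The lists also differed in the length of the members they held. Members with a day 5 5hmC peak had a median length of 40.2 kb, beside 63.7 kb for members without one. Members with a day 10 5hmC peak had a median of 190 kb beside 36.9 kb, and those with a day 10 5mC peak 320 kb beside 40.2 kb. Over all protein-coding genes with a peak the medians were 72.9 kb (5hmC day 5), 84 kb (5hmC day 10) and 63.3 kb (5mC day 10).

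**Figure D3:**
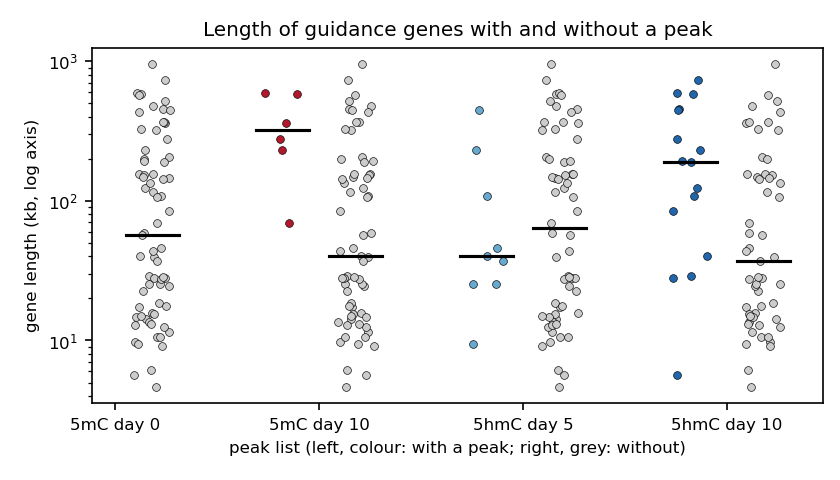
Length of each of the 71 guidance genes in kb on a log axis, by whether it had a peak in a list (colour, left) or not (grey, right), with medians as black lines. The 6 genes with a 5mC peak at day 10 are all longer than 50 kb, and the 9 with a 5hmC peak at day 5 run from 9.41 to 444 kb.

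Of the ligands, 13 of 37 had a peak in at least 1 list, and of the genes grouped with the receptors 10 of 34, or 9 of 33 without Unc5cl. Ligands made up 37 of the 71 members. They accounted for 11 of the 16 members with 5hmC at day 10, and for 4 of the 9 at day 5. By signalling system, 12 of 31 genes of the semaphorin system and 5 of 22 of the Eph system had a peak. So did 2 of 7 Slits and Robos and 4 of 11 genes grouped with the netrin system, or 3 of 10 without Unc5cl. Ntng1 and Ntng2, neither with a peak, were kept in the netrin system and among the ligands in all these counts. Beside these counts and the family counts below, 15.9% of all protein-coding genes had a peak in any list. Median lengths were 40.2, 28.4, 325 and 84.8 kb for these systems in turn. They were 39.7 kb for ligands and 76.9 kb for receptors, and the part of length was not tested. Of the 18 genes named Slit, Robo, Ntn or Unc5, none had a 5hmC peak at day 5, beside 5.27% of all protein-coding genes. At day 10, 5 had one, beside 8.32%, or 4 of 17 without Unc5cl. The median length of the 18 was 125 kb. Of all protein-coding genes of at least 50 kb, 14% had a day 5 5hmC peak and 23.5% a day 10 one. The 18 genes join the Slit and Robo genes with the netrin system, each with 0 genes in the day 5 5hmC list. This grouping was not among the planned comparisons. The 18 genes are few, the day 10 list is the longer, and the difference between days was not tested. Neither neuropilin had a peak, nor did any of the 3 B ephrins.

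Among the 7 class 3 semaphorins, which are secreted, Sema3e and Sema3f had peaks. Sema3e, the ligand of plexin D1, was the only member with peaks in 3 lists. Its day 5 5hmC peak (chr5:14182118-14182669, 552 bp) lay in intron 4 of a transcript with 17 exons, at 67.9% of the length of the 231 kb gene. Its day 10 5hmC peak (chr5:14213553-14213689, 137 bp) lay in intron 5, 30884 bp further on. Its day 10 5mC peak (chr5:14225365-14226032, 668 bp) covered a coding exon and held 18 CpG, 2.69 per 100 bp against 0.749 in the flanks. The 3 peaks thus stood in order along the gene without overlap. Sema3f, which signals with neuropilin-2, had a 603 bp day 10 5hmC peak in intron 2, the widest day 10 5hmC peak of any member, and that peak held an NF1 string.

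The 13 semaphorins of classes 4 to 7, most of which span the membrane, had 6 members with peaks. Sema6d, a transmembrane ligand of plexin A1, carried 4 of the peaks. Both its 5mC peaks covered coding exons, at chr2:124659222-124659975 and chr2:124663503-124665106, 98.6% and 99.4% of the way along a 578 kb gene. The second of them was the widest 5mC peak of any member at 1604 bp and held 48 CpG. Its day 10 5hmC peaks lay in intron 2 (chr2:124239988-124240126, shown above) and intron 5 (chr2:124509279-124509460), and the nearer stood 149762 bp from the 5mC peaks. The authors' annotation gave no symbol for these 5hmC peaks.

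Sema4d, a transmembrane ligand of plexin B1 known from osteoclasts as a brake on bone formation, had 5hmC peaks on both days at places 86798 bp apart. The day 5 peak (chr13:51799893-51800645) lay 6146 bp upstream of the gene and was placed by the authors' symbol alone. The day 10 peak (chr13:51712956-51713095) lay in intron 8, 126 bp from the nearest exon. Sema4a had 1 day 5 peak in intron 10. Sema4f had a day 10 peak in a coding exon, at 93.5% of the gene, with 3.54 CpG per 100 bp against 0.505 in the flanks. Sema5a and Sema5b, whose proteins carry thrombospondin repeats, each had 1 day 10 5hmC peak in intron 3 of the gene, and the flanks of the Sema5a peak held no CpG.

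Of the plexins, the semaphorin receptors, 4 of 9 had a 5hmC peak at day 5, and 2 of these had one at day 10. All protein-coding genes gave 5.27% and 8.32%. No plexin had a 5mC peak on either day, beside 0.556% of all protein-coding genes at day 0 and 6.71% at day 10. With 9 genes, a count of 0 does not set plexins apart from these 5mC shares. Plxnd1, the receptor of Sema3e, had 2 peaks at day 5. The first covered a coding exon. The other (chr6:115973322-115974730, 1409 bp) lay in intron 8, and the whole of the 309 bp day 10 peak (chr6:115973772-115974080) fell inside it. The exon peak had no day 10 counterpart.

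Plxna4, a receptor of class 3 semaphorins with neuropilin-1, had a 620 bp day 5 peak (chr6:32376949-32377568) and a 187 bp day 10 peak (chr6:32377440-32377626) in intron 3. They shared 129 bp and stood 211 kb into a 444 kb gene. In Plxna1 a coding exon lay under the day 5 peak (chr6:89354183-89355284, 1102 bp), and Plxnb2 had a day 5 peak in intron 3 with 2.37 CpG per 100 bp. The Plxnb2 peak was no richer in CpG than its flanks, at 2.42.

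In the Eph system the 2 ephrins with peaks differed by mark and day. Efna1, a membrane-anchored A ephrin, had 2 day 5 5hmC peaks and no other. The first (chr3:89276171-89276961) covered a coding exon of a 9.41 kb gene, and the second (chr3:89288044-89289119) lay 6902 bp upstream and was placed by the authors' symbol. Efna5, another A ephrin, had 2 day 10 5mC peaks, of which chr17:62613000-62614095 covered a coding exon at 96.6% of the gene and chr17:62783793-62784922 lay in intron 1. Its day 10 5hmC peak (chr17:62845510-62845639) was in the same intron, 60588 bp from the nearer 5mC peak. Efna2, Efna3 and Efna4 had none.

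Of the 14 Eph receptors, 3 had a peak, each in a different list. Epha10, whose kinase domain is thought inactive, had a day 5 5hmC peak that covered a coding exon (chr4:124883259-124884214), 2.84 kb from the gene start. It held NF1, RUNX and SOX strings and fewer CpG per 100 bp than its flanks, 1.15 against 2.09. Epha5 had a day 10 5mC peak in intron 3 with 2.07 CpG per 100 bp against 0.314 in the flanks. Ephb2 had a day 10 5hmC peak in intron 3 with a single CpG.

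Slit3, a secreted ligand of Robo receptors, had 4 peaks and was the only Slit or Robo gene with both marks. Its 3 day 10 5hmC peaks (chr11:35297541-35297761, chr11:35308194-35308418 and chr11:35466726-35466932) were all in intron 4 of a transcript with 36 exons, between 41291 and 73286 bp from the nearest exon. They held 7, 2 and 4 CpG. Its day 10 5mC peak (chr11:35642293-35643229) lay in intron 20 with 23 CpG, 175361 bp beyond the last of them. The other Slits, Slit1 and Slit2, had none. Robo1 had a day 10 5hmC peak of 65 bp in intron 2 that was wholly (100%) repeat sequence, and Robo2, Robo3 and Robo4 had none.

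In the netrin system Ntn1, the founding secreted netrin, had 2 day 10 5hmC peaks 80 bp apart near its start. In the GENCODE annotation they lay in intron 2 of a transcript with 8 exons, the closer one 187 bp from an exon. In RefSeq, where the gene starts further in, they lay 373 and 589 bp upstream of it. The first held 7.3 CpG per 100 bp, the same as its flanks, and the second 1.44 against 6.83. Ntn3 had a day 10 5hmC peak (chr17:24213373-24213556) 3842 bp upstream, 75.5% repeat. Its deposited annotation carries the symbol 1600002H07Rik.

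Unc5b, a netrin receptor that mediates repulsion, had a day 10 5mC peak (chr10:60838846-60839887) 7265 bp upstream, placed by the authors' symbol. It held 34 CpG, 3.26 per 100 bp, the highest density among the 8 5mC peaks. Unc5cl had a 59 bp day 10 5hmC peak with no CpG, 20.3% GC and 78% repeat, inside an intron of transcripts subject to nonsense-mediated decay and 48040 bp from the nearest exon of a coding transcript. The authors gave it no symbol.

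Between the days, few 5hmC peaks overlapped, at members and in the whole lists. Of the 21 members with 5hmC on either day, 4 had it on both (Sema3e, Sema4d, Plxna4 and Plxnd1), 5 at day 5 only and 12 at day 10 only. As a share, 44.4% of the members of the day 5 list were in the day 10 list and 25% of those of the day 10 list in the day 5 list, where all protein-coding genes gave 48.1% and 30.5%. By position, 2 of 11 day 5 peaks at members overlapped a day 10 peak by at least 1 bp, 18.2% (Wilson 95% interval 5.14 to 47.7), beside 29.6% of the whole list. In the other direction it was 2 of 20, 10% (2.79 to 30.1), beside 17.1%. Both backgrounds lay inside the intervals. Day 10 peaks were also narrower, with a list median of 147 bp against 819 bp at day 5.

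Between the marks no peak was shared. Of the 6 members with a day 10 5mC peak, Sema3e, Sema6d, Efna5 and Slit3 also had a day 10 5hmC peak, 66.7% beside 27.5% of all protein-coding genes with a day 10 5mC peak. All 4 were longer than 200 kb, beside a median of 63.3 kb for those protein-coding genes, and the part of length in this share was not tested. None of the 20 day 10 5hmC peaks at members overlapped a day 10 5mC peak, where the Wilson 95% interval reached 16.1%, beside 0.696% of the whole list. Within a gene the marks came no closer than the 11676 bp at Sema3e.

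**Figure D4:**
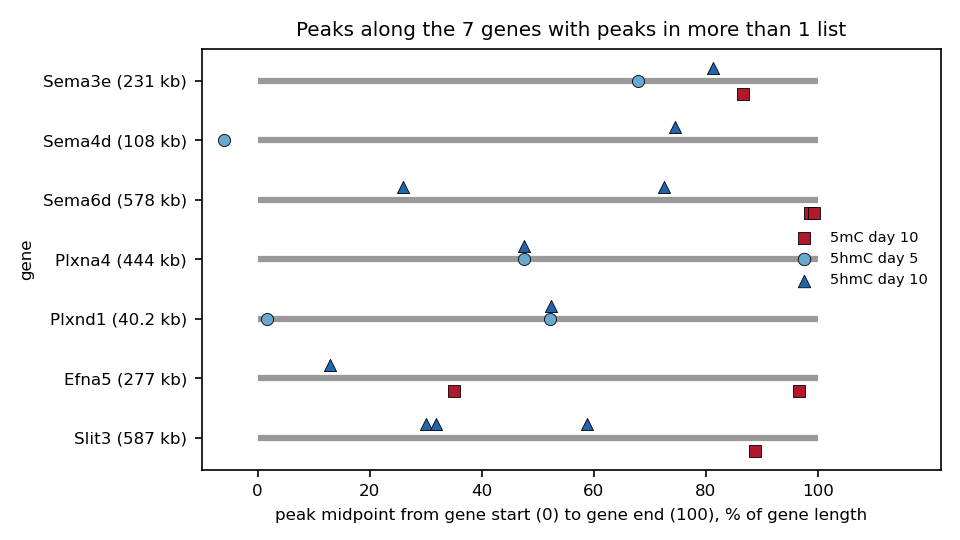
Peak midpoints along the 7 guidance genes with peaks in more than 1 list, as a percentage of gene length from start (0) to end (100), with gene lengths in kb beside the symbols. The day 5 and day 10 5hmC symbols coincide at Plxna4 and near 52% of Plxnd1, and the 5mC squares of Sema3e, Sema6d, Efna5 and Slit3 stand beyond their 5hmC peaks.

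The place of the peaks within the genes was counted for each list. Of the 8 day 10 5mC peaks 4 covered coding exons, 3 were intronic and 1 was upstream, where all protein-coding genes gave 51.5%, 39.3% and 9.19% of their peaks. The 4 exonic ones, at Sema3e, Efna5 and Sema6d, all stood from 86.6% to 99.4% of the gene length. Of the 11 day 5 5hmC peaks 4 covered exons, 5 were intronic and 2 upstream, beside 26.4%, 61.2% and 12.4%. Of the 20 day 10 5hmC peaks 18 were intronic, 1 exonic and 1 upstream, beside 74.7%, 10.9% and 14.4%. The 18 include the 2 Ntn1 peaks, which lie upstream of the gene in RefSeq, so this count depends on the annotation. Inside genes the median position was 88.8% of gene length for 5mC at day 10 (7 peaks; all genes 60.1%), 47.5% for 5hmC at day 5 (9 peaks; 49.5%) and 52.4% for 5hmC at day 10 (19 peaks; 49.6%). The 5mC peaks at members thus lay later in the gene than the list as a whole, over few peaks.

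In width and base content the member peaks mostly resembled their own list, apart from the GC content of the day 5 5hmC peaks. The median width was 1069 bp for 5mC at day 10 (list 1006), 794 bp for 5hmC at day 5 (819) and 161 bp for 5hmC at day 10 (147). The median CpG content was 2.55 per 100 bp (list 2.42), 1.99 (1.61) and 1.91 (1.8) in the same order. The day 5 value lay just under the upper quartile of its list, 2.03. All 8 5mC peaks held more CpG than flanks of equal width 2000 bp away, as did 90.3% of that list, and 7 of 11 day 5 and 13 of 20 day 10 5hmC peaks did, beside 79.5% and 70.5%. GC content was a median of 46.2% (list 46.9), 53.1% (48.7) and 52.1% (50.4). The day 5 median of members was above the upper quartile of that list, 51.9%. Repeats covered a median of 14.5% (14), 6.1% (10.6) and 7.59% (0) of the peaks.

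**Figure D5:**
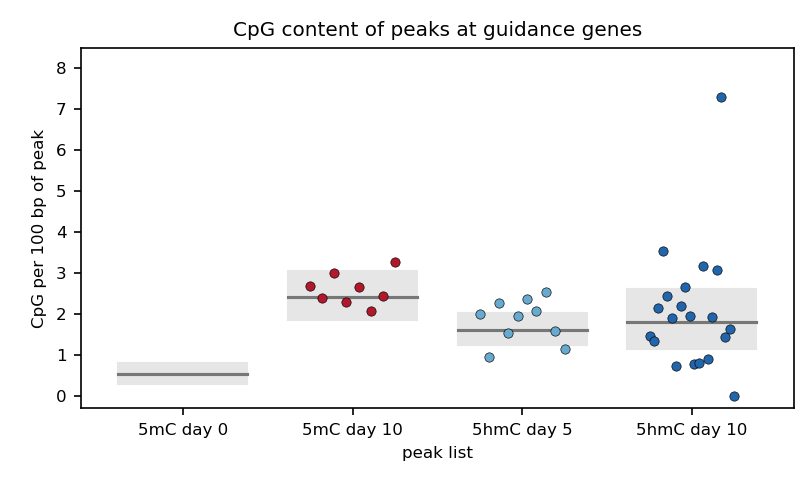
CpG per 100 bp in the peaks at guidance genes (points), by list, over the median (line) and interquartile range (grey box) of all peaks in that list. No member peak falls in the day 0 5mC list. The coding exon peak of Plxnd1 is not plotted. Of the peaks plotted, the first Ntn1 peak at day 10 has the most (7.3).

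Motif strings of 4 factors were searched on both strands in the whole peak. They were TGACTCA for AP-1, TGCCAAG for NF1, AACCACA for RUNX, and ACAAAGG or ACAATGG for SOX, each counted by itself. The AP-1 string was in 2 of 11 day 5 peaks at members (Sema3e and the upstream peak of Efna1), beside 43.1% of that list, and in 1 of 8 5mC peaks (Sema6d; list 13.4%) and 0 of 20 day 10 5hmC peaks (7.97%). The NF1 string was in 4 day 5 peaks, at Plxnb2, Plxnd1, Efna1 and Epha10 (list 23.5%), in 2 day 10 5hmC peaks, at Sema3f and Sema5a (7.85%), and in no 5mC peak (17.7%). RUNX strings were in 2, 2 and 0 peaks for 5mC at day 10, 5hmC at day 5 and 5hmC at day 10 (lists 19.8%, 25.6% and 7.56%), and SOX strings in 2, 2 and 2 (30.2%, 27.2% and 5.38%). The SOX strings of the day 10 5hmC list were in the Sema6d and Slit3 peaks shown above. A string is a description of the letters and not of a bound site.

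Of the 48 members without a peak, 9 were at least 300 kb long, namely Epha6, Unc5d, Robo2, Sema3a, Ephb1, Unc5c, Ntng1, Slit2 and Epha3. They made up 60% of the 15 members of that length, beside 44.8% without a peak among all 567 such protein-coding genes. Epha6 at 952 kb was the longest member. The remaining members without peaks were Sema3b, Sema3c, Sema3d, Sema3g, Sema4b, Sema4c, Sema4g, Sema6a, Sema6b, Sema6c and Sema7a of the semaphorins, and the receptors Nrp1, Nrp2, Plxna2, Plxna3, Plxnb1, Plxnb3 and Plxnc1. They also included Efna2, Efna3, Efna4, Efnb1, Efnb2, Efnb3, Epha1, Epha2, Epha4, Epha7, Epha8, Ephb3, Ephb4, Ephb6, Slit1, Robo3, Robo4, Ntn4, Ntn5, Ntng2 and Unc5a. The 3 members on chromosome X, Plxna3, Plxnb3 and Efnb1, were among them. For 34 of the 48 the nearest peak of any list was over 50 kb away. Within 50 kb of a member without a peak there was a day 5 5hmC peak at 8 genes (closest Ephb3, 11807 bp), a day 10 5mC peak at 5 (closest Ntng2, 4549 bp) and a day 10 5hmC peak at 3 (closest Ntn4, 24787 bp). These distance counts are given without a background over all protein-coding genes, and do not show whether members lay unusually near to or far from peaks.

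Genes that act with the guidance receptors were taken from a list of 58 textbook co-receptors and effectors, of which 57 were in the annotation. At least 1 peak lay at 26 of them (45.6%), beside 15.9% of all protein-coding genes. They were long genes, with a median of 112 kb and 42 of the 57 at least 50 kb long. For 5mC, 1 of them (1.75%) had a peak at day 0 and 11 (19.3%) at day 10, beside 0.556% and 6.71% of all protein-coding genes and 1.72% and 16.2% of those of at least 50 kb. For 5hmC, 12 (21.1%) had a peak at day 5 and 19 (33.3%) at day 10, beside 5.27% and 8.32% of all and 14% and 23.5% of the long genes. Of the effectors of semaphorin and plexin signalling, 10 of 16 had a peak, 8 of them with 5hmC at day 10. A peak in any list lay at 5 of 8 Slit and Robo effectors, 4 of 8 Eph and ephrin effectors, 5 of 16 shared cytoskeletal effectors and 2 of 9 netrin and repulsive guidance co-receptors. Those with peaks in both 5hmC lists or in both marks were Srgap3, a GTPase-activating protein downstream of Robo, Dpysl5 and Mical3 of the semaphorin pathway, and the exchange factors Ngef, Tiam1, Kalrn and Trio. The adaptor Grip1, the kinase Pak2 and the actin-binding proteins Ablim1 and Ablim3 completed the set. Ngef is in it by position, since its day 5 peak and the day 10 peak overlapping that one carry the symbol Neu2 in the deposited annotation. Limk1, the kinase of cofilin, was the only gene of this list with a day 0 5mC peak and had another at day 10 elsewhere in the gene.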

How the data were processed

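Genomic DNA of ATDC5 cells was enriched for 5mC (methyl-CpG binding complex) or 5hmC (tagging by a glucosyltransferase). According to the methods of the study, the authors trimmed reads, aligned them with BWA and called peaks with MACS 1.4.2 (version from the submitters' processing notes). The 4 deposited tables hold positions alone (GRCm38), 1 list per group. Their limits were 3-fold (5mC) and 10-fold (5hmC), and 2 samples were merged per 5hmC list. The control of the peak calls is not given in the sources used here, and a different control or depth would change number and width of peaks. Empty rows of the deposited 5hmC tables (27818 and 25449) were dropped.

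Peaks were assigned to GENCODE M21 genes (gene span plus 5000 bp upstream, or the authors' symbol) with Python 3.11.15, pandas 2.3.3 and pysam 0.24.0. Widths were end minus start plus 1. Each peak was placed by any overlap with an exon of a transcript, then intron, then upstream. Shares have Wilson 95% intervals (scipy 1.17.1). With 1 list per group no test was run. Assignment was checked on simulated peaks. The members and lists were chosen with earlier results of these data known. Every member with a peak was named, with positions for those in several lists, with 3 peaks, with shared peaks or with a promoter or exon peak. Alternatives were the upstream limit, midpoint placement, symbol or position alone, membership, wider peaks, merging, overlap limits, RefSeq spans and 200 bp windows. The base content of 1 peak is not reported here.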

Additional observations from a re-analysis of the deposited data

How the results depend on the processing

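The merged lists had no per-sample values, so no sample could be left out, and they held no score, so no stricter score limit was run. No paired analysis was possible because each 5hmC list merges the numbered samples of its day, and no result came from a test. Of 58 alternatives for counts of genes and peaks, 54 gave a value within 1.5 times the main count. A count has no direction that could reverse. The 54 include every alternative to a main count of 0, as for 5mC at day 0. Most of those narrow the window or the set of peaks and could only give 0 again. Keeping only peaks of at least the median width of their list left 5 members with a 5hmC peak at day 5 (from 9) and 9 at day 10 (from 16), since this removes the narrower peaks by construction. Asking for 50% of both peaks to be shared left 0 overlaps in either direction between the 5hmC days (from 2 each), as the day 10 peaks are much narrower. By the authors' symbol alone the day 10 5hmC count was 13, without Ntn3, Sema6d and Unc5cl, and an upstream limit of 10000 bp added Ephb4 to 5mC at day 10. By position alone, an alternative chosen after seeing the data, Unc5b and Sema4d left the 5mC day 10 and 5hmC day 5 lists. RefSeq gene spans, also added later, changed no gene. In windows of 200 bp the 5mC median rose to 4 CpG per 100 bp, and the AP-1, RUNX and SOX strings at 5mC peaks and the NF1 and SOX strings at day 5 5hmC peaks fell to 0%. The narrowest member peaks of these lists were 668 bp (5mC day 10) and 552 bp (5hmC day 5). A 200 bp window inside them can by construction only keep or lose strings. The cause of the higher CpG median was not tested.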
